A study of Homo sapiens with 6 samples.

Results

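The genes described here are the keratins and the keratin-associated proteins, 77 of the 19775 genes that the arrays measured with a probe set annotated to 1 symbol. They were taken by name, as every protein-coding gene whose symbol is KRT or KRTAP followed by a number. The family itself was chosen with earlier results of these data known. It comprised 44 keratins (24 of type I and 20 of type II) and 33 keratin-associated proteins. Their values come from SW480, an established cell line of a human colorectal adenocarcinoma, hybridised to Affymetrix HG-U133 Plus 2.0 arrays, with 3 arrays labelled as CPEB3-overexpressing and 3 labelled as negative control (NC). CPEB3 is an RNA-binding protein of the cytoplasmic polyadenylation element binding family that regulates the translation of mRNAs. Both groups were transfected cells grown in the same serum-containing medium; the sources used here give neither the vector nor whether a group was 1 clone or a pool. The labels call the replicates biological without naming cultures or days, so the p-values reflect only how much these samples spread, which may be technical, and the number of arrays limits the precision.

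Keratins are the intermediate filament proteins of epithelia. A type I and a type II keratin pair to build the filament, and the pair in use marks the kind of epithelium: KRT8 with KRT18, KRT19 and KRT20 in simple epithelia such as the colon lining, KRT5 with KRT14 or KRT15 in the basal layer of stratified epithelia, and a separate series of hair keratins in the hair shaft. Keratin-associated proteins are small proteins rich in cysteine or in glycine and tyrosine that cross-link hair keratin filaments, and they are known from the hair follicle rather than from the colon.

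The mRNA of CPEB3 passed the test upward at none of its 4 probe sets in the arrays labelled CPEB3, and was lower at 3 of them: at the probe set that stands for the gene the log2 intensity was 5.37 against 5.32 (limma, Benjamini-Hochberg adjusted p = 0.695 over all probe sets), and its other 3 probe sets were lower there. These differed by -1.44 (2.72-fold), -0.35 and -0.25, each past the threshold (limma, Benjamini-Hochberg adjusted p = 7.80e-05, 0.00877 and 0.0473 over all probe sets). Groups are named by their labels below for that reason, and each direction rests on those labels. Of 15 colon epithelial markers 10 lay above the median probe set on all 6 arrays, among them EPCAM, CDH1, VIL1 and CDX2, while CDH17, LGALS4, PHGR1 and FABP1 lay below it on all 6. Of all 19775 genes 12355 lay above it on all 6, so the count of 10 does not set these markers apart. Among 12 epidermal and hair markers 2 lay above the median on all arrays. Their summed linear intensity was 119 to 127 in the arrays labelled CPEB3 and 128 to 131 in those labelled NC, and the 2 ranges did not overlap. Taken 1 by 1, 3 of the 12 had no overlap (25%), against 39.1% of all genes. Of the 12, 1 was higher and 2 lower (25%, beside 23.3% of all genes), and 8 lay below the median on all 6 arrays. The sum is thus not a shift of the whole list.

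KRTAP3-1 had the largest difference of the family, and its nearest relatives KRTAP3-2 and KRTAP3-3, which lie beside it, did not pass the test. The 250 bases before the annotated start of these 3 genes are shown because this contrast sits among neighbours, together with those of KRT20, the simple epithelial keratin that differed most. They are RefSeq sequences on GRCh38.p14, all from the minus strand: chr17:41009129-41009378 for KRTAP3-1, chr17:40999907-41000156 for KRTAP3-2, chr17:40994165-40994414 for KRTAP3-3 and chr17:40885243-40885492 for KRT20. Capitals mark matches to TATAAA on the printed strand, and to CACCC (the core read by Kruppel-like factors), TGANTCA (AP-1) and the core of the interferon-stimulated response element on either strand.
KRTAP3-1: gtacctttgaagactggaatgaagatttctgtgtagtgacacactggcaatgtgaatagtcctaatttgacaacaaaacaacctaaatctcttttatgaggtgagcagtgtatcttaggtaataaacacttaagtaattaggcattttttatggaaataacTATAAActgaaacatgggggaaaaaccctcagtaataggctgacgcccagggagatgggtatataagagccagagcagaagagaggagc
KRTAP3-2: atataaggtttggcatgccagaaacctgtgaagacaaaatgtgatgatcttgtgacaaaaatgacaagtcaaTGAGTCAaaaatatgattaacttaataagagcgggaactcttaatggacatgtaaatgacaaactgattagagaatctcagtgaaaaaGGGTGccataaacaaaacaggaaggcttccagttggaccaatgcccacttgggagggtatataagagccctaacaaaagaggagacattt
KRTAP3-3: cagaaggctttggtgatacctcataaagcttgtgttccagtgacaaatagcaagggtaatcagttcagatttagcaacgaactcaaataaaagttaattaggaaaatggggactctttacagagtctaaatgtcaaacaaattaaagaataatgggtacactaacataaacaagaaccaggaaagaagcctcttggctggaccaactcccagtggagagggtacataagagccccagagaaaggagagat
KRT20: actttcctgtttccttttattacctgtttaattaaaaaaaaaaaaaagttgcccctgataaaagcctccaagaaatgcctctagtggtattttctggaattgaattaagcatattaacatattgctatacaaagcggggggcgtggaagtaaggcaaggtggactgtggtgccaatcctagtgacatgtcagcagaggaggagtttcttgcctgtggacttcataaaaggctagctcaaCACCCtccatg
In a global alignment the KRTAP3-1 stretch was 53.6% identical to that of KRTAP3-2 and 56.6% to that of KRTAP3-3, and those of KRTAP3-2 and KRTAP3-3 were 61.0% identical; KRTAP3-1 and KRT20 gave 44.2%. Of the motifs searched, the KRTAP3-1 stretch held TATAAA only, that of KRTAP3-2 held TGANTCA and CACCC, that of KRT20 held CACCC, and that of KRTAP3-3 held none. The search took the exact letters TATAAA. The stretches of KRTAP3-1 and KRTAP3-2 both hold gtatataagagcc near their end, which it does not count. The TATAAA match thus does not show that KRTAP3-2 lacks such an element. Of the 77 members 59 had such a stretch in the RefSeq table, and 62.7% of these held TATAAA against 7.17% of 27305 genes. CACCC was in 55.9% of the members and 53.7% of all, TGANTCA in 6.78% and 6.60%, and the response element core in 13.6% and 3.07%. Many of these members are neighbouring copies of one another, and a match is a description of letters, not a binding site.

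Across the family 11 members rose and 2 fell in the arrays labelled CPEB3 relative to NC, and 64 did not pass (limma, Benjamini-Hochberg adjusted over all genes at 0.05). That is 16.9% of the members, where 23.3% of all genes passed; 10.9% of all genes were higher and 12.5% lower. The share of members called was thus below that of all genes, but 51 of the 77 lay below the array median on all 6 arrays. Of these 51, 11.8% passed, beside 5.86% of all genes as dim. Of the 21 above it on all 6, 33.3% passed, beside 32.7% of all genes as bright. Of the 5 on both sides 0 passed. In bulk RNA such as this, fewer cells expressing a gene and less RNA per cell cannot be told apart. The median difference of the members was 0.10 on the log2 scale and that of all genes 0.02, and 54 members (70.1%) had a difference above 0 where 55.0% of all genes did. The groups had no overlapping values in 25 members (32.5%), against 39.1% of all genes. Above the array median on all arrays this held for 52.4% of members and 52.1% of all genes. Below it on all arrays it held for 25.5% and 15.6%. Without NC replicate 3 the higher members numbered 7 and the lower 2, and without CPEB3 replicate 2 the median was 0.0658. The split of calls moved with the scaling: quantile normalization once more gave 10 higher and 4 lower, and centring each array on its 18 hybridization spike-in probe sets, which adds 0.179 to every difference, gave 43 higher and 1 lower, while 39.3% of all genes then were higher. All 13 called members rest on a single probe set each.

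**Figure D1:**
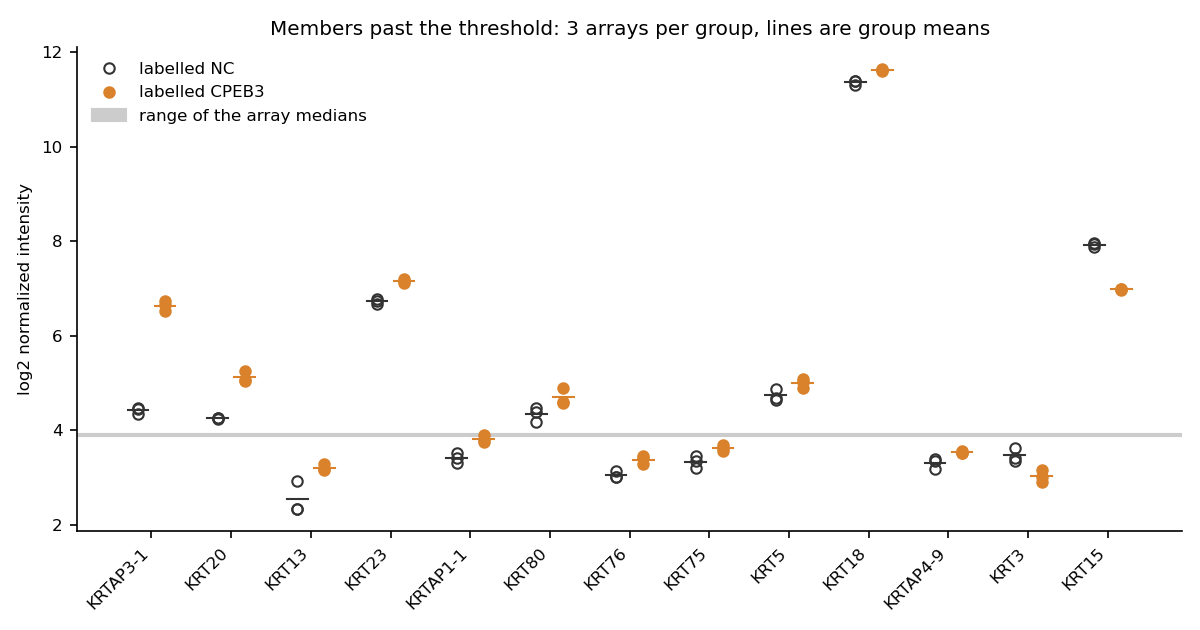
Log2 normalized intensity (vertical axis) of the 13 members past the threshold, with open circles for the 3 arrays labelled NC, filled circles for the 3 labelled CPEB3, short lines for group means and a grey band for the array medians (3.89 to 3.93). The groups do not overlap in any of the 13, which were picked by a test on these same arrays, so this adds no support. Over all genes the groups do not overlap in 39.1%. KRTAP3-1 and KRT15 stand farthest apart.

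Brightness divided the family. On all 6 arrays 21 members lay above the array's median probe set, 51 lay below it on all 6 and 5 on both sides. The 5 on both sides were KRT74 (difference 0.15), KRT4 (0.02) and KRT85 (-0.06), above the line on 5 arrays each, and KRT73 (0.05) and KRT16 (-0.35), above it on 1 each. Of the 21 brighter members 6 were higher and 1 lower, a share of 33.3% beside 32.7% of all genes as bright. Of the 51 dim members 5 were higher and 1 lower, 11.8% beside 5.86% of all genes as dim. The deposited values carry no detection call, and the distance of a member from background was not tested, for bright members as for dim ones. The line is not a detection limit, as the leukocyte markers CD3E and CD79A also lay above it on all 6 arrays.

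**Figure D2:**
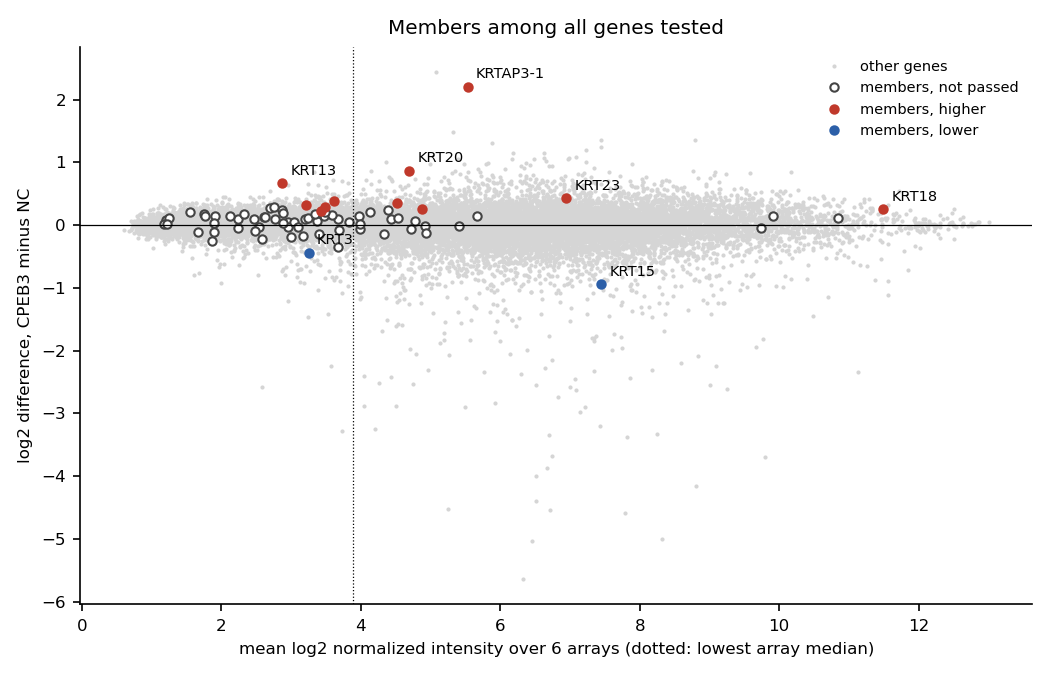
Log2 difference, CPEB3 minus NC (vertical axis), against the mean log2 intensity over 6 arrays (horizontal axis) for all 19775 genes (grey) and the 77 members (circles, filled where past the threshold). Most members sit left of the dotted line at the lowest array median (3.89), and KRTAP3-1 lies near the top of all genes at 2.21.

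Of the simple epithelial keratins, KRT8, KRT18, KRT19 and KRT20 are known from colon epithelium, which typically lacks KRT7, and all 5 lay above the median on every array. KRT20, the type I keratin of differentiated intestinal epithelium, read 5.06, 5.05 and 5.27 in the arrays labelled CPEB3 and 4.25, 4.27 and 4.25 in those labelled NC. All 3 of the first group were above all 3 of the second. The difference was 0.87 (SE 0.07, 95% interval 0.71 to 1.03, 1.83-fold), with limma Benjamini-Hochberg adjusted p = 4.18e-05. KRT18 read 11.63, 11.64 and 11.59 against 11.31, 11.40 and 11.38. This small step of 0.26 (SE 0.06, 1.20-fold) was again free of overlap and passed (limma, Benjamini-Hochberg adjusted p = 0.0103), at a probe set that can match several transcripts.

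KRT8, the type II partner of KRT18, read 10.03, 10.05 and 9.89 against 9.78, 9.91 and 9.83, so 1 array labelled CPEB3 fell inside the NC range. Its difference of 0.15 (95% interval -0.01 to 0.30) did not pass (limma, Benjamini-Hochberg adjusted p = 0.159), and whether it differs from that of KRT18 was not tested. The probe set of KRT8, like that of KRT18, can match several transcripts. KRT19, a type I keratin of simple ducts and gut, gave 0.12 (95% interval -0.00 to 0.25; limma, Benjamini-Hochberg adjusted p = 0.157) without overlap between the groups. Both passed with an intensity trend (limma, Benjamini-Hochberg adjusted p = 0.0308 for KRT8 and 0.0178 for KRT19) and with spike-in centring (0.0141 and 0.0137). KRT7, the type II keratin of many glandular epithelia, gave -0.01 (95% interval -0.16 to 0.15), and its other 3 probe sets gave 0.06, 0.06 and 0.26, none past the threshold.

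The basal keratins split. KRT15, known from basal keratinocytes and the stem cells of the hair bulge, read 6.98 in each of the 3 arrays labelled CPEB3 and 7.87, 7.95 and 7.95 in those labelled NC. This was the largest fall of the family, -0.94 (SE 0.06, 95% interval -1.07 to -0.82, 1.92-fold), with limma Benjamini-Hochberg adjusted p = 6.06e-06. KRT5, the type II keratin of the basal layer, was 4.89, 5.09 and 5.03 against 4.88, 4.65 and 4.69. The groups nearly met, and its difference of 0.26 (limma, Benjamini-Hochberg adjusted p = 0.0425) lost the call when CPEB3 replicate 2 or 3 or NC replicate 2 or 3 was left out (0.108 to 0.140). KRT14, the usual type I partner of KRT5, was dim and gave -0.22 (95% interval -0.46 to 0.03; limma, Benjamini-Hochberg adjusted p = 0.194).

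Of 5 listed stress-induced keratins only KRT16, which epidermis switches on in wounds, was analysed here. KRT6A, KRT6B, KRT6C and KRT17 are not among the members. KRT16 lay at 3.44, 3.69 and 3.38 against 3.69, 4.10 and 3.76. The groups met at 3.69, and the difference of -0.35 did not pass (limma, Benjamini-Hochberg adjusted p = 0.0648). It did pass after median centring, repeated quantile normalization, an intensity trend and without CPEB3 replicate 2 (limma, Benjamini-Hochberg adjusted p from 0.0336 to 0.0480). KRT16 was dim on 5 of the 6 arrays.

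Among 10 keratins of suprabasal and mucosal layers 2 were higher and 1 lower, all 3 dim. That is 30% of a small list, beside 23.3% of all genes. KRT13, the type I keratin of wet mucosae, read 3.18, 3.29 and 3.16 against 2.94, 2.34 and 2.34. NC replicate 1 stood above the other NC arrays but below every array labelled CPEB3, and the difference was 0.67 (SE 0.14, 95% interval 0.34 to 0.99; limma, Benjamini-Hochberg adjusted p = 0.00964). The probe set of KRT13 can match several transcripts. KRT76, a type II keratin of the palate and gum, gave 0.33 (SE 0.07; limma, Benjamini-Hochberg adjusted p = 0.00772). KRT3, the type II keratin of the cornea, was 2.91, 3.16 and 3.02 against 3.42, 3.63 and 3.36. Its difference was -0.44 (limma, Benjamini-Hochberg adjusted p = 0.00736). Spike-in centring ended this call (-0.26; limma, Benjamini-Hochberg adjusted p = 0.0618). KRT12, the corneal partner of KRT3, gave 0.04 (95% interval -0.20 to 0.27). KRT10, a type I keratin of suprabasal epidermis that was bright on all arrays, gave -0.04 (95% interval -0.17 to 0.08), with -0.09 and -0.16 at its other 2 probe sets and 0.13 after spike-in centring. KRT9, the keratin of palms and soles, gave -0.14, or 0.04 so centred. KRT2, a late epidermal keratin, gave 0.30 and lay at the threshold (limma, Benjamini-Hochberg adjusted p = 0.0506). It passed in 4 of 17 alternatives, 1 of them without CPEB3 replicate 2 (limma, Benjamini-Hochberg adjusted p = 0.0184).

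Of the 6 other epithelial keratins 2 were higher, both bright. That is 33.3% of a small list, beside 23.3% of all genes. KRT23, a type I keratin known from some colon cancers, read 7.15, 7.19 and 7.13 against 6.68, 6.74 and 6.77. The groups were well apart, by 0.43 (SE 0.06, 1.34-fold; limma, Benjamini-Hochberg adjusted p = 8.26e-04), at a probe set that can match several transcripts. KRT80, a type II keratin, read 4.59, 4.60 and 4.90 against 4.19, 4.47 and 4.38. Its 0.35 (SE 0.10; limma, Benjamini-Hochberg adjusted p = 0.0349) leaned on CPEB3 replicate 3, NC replicate 1 and NC replicate 3, without which it did not pass (limma, Benjamini-Hochberg adjusted p = 0.0950, 0.108 and 0.0583). KRT222, a short type I relative, gave 0.06 (95% interval -0.07 to 0.19).

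Of 12 hair keratins 0 passed limma's test and 1 (KRT40) had an unadjusted p under 0.05. Their differences lay between -0.16 (KRT33A) and 0.18 (KRT38), with a median of 0.09. Of the 12, 9 were dim on all arrays, where 5.86% of all genes passed, so 0 calls do not set this list apart. Of those bright on all arrays, KRT32 gave -0.12 and KRT83 -0.06, and both turned positive with spike-in centring (0.06 and 0.12). In that scaling, which adds 0.179 to every difference, 6 of the 12 were higher, beside 39.3% of all genes. Of 7 root sheath keratins 1 passed (14.3%, beside 23.3% of all genes), and 5 of the 7 were dim on all arrays. The 1 past the threshold was KRT75, the type II keratin of the companion layer, at 3.62, 3.70 and 3.57 against 3.46, 3.35 and 3.20 (0.29; limma, Benjamini-Hochberg adjusted p = 0.0228). That call was lost without CPEB3 replicate 1 or 2 or NC replicate 2 or 3 (limma, Benjamini-Hochberg adjusted p from 0.0542 to 0.0833).

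**Figure D3:**
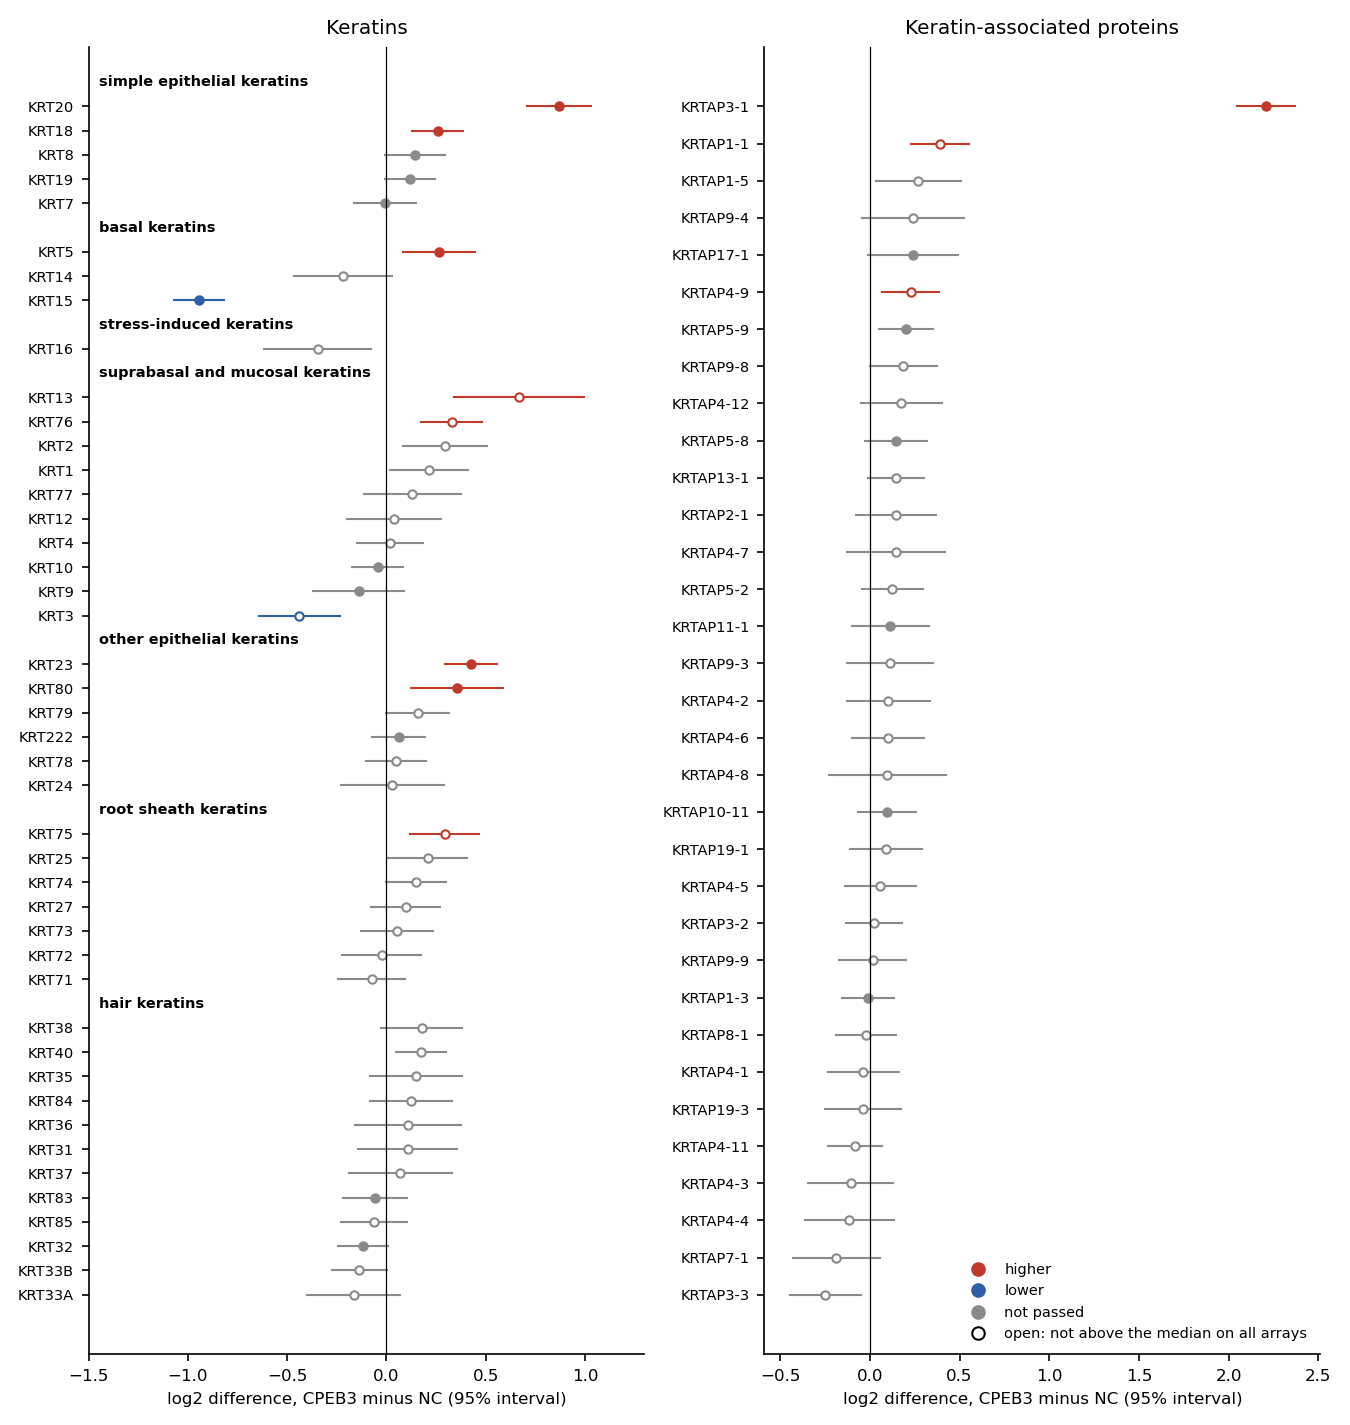
Log2 difference, CPEB3 minus NC, with its 95% interval from limma (horizontal axis) for the 44 keratins by role (left) and the 33 keratin-associated proteins (right). Red marks members higher, blue lower and grey not past the threshold, and open points were not above the array median on all 6 arrays; most intervals cross 0.

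KRTAP3-1, a high-sulfur keratin-associated protein, read 6.52, 6.64 and 6.74 in the arrays labelled CPEB3 and 4.35, 4.47 and 4.46 in those labelled NC. Every array of one group was more than 2 log2 units above every array of the other. The difference was 2.21 (SE 0.07, 95% interval 2.05 to 2.37, 4.62-fold), with limma Benjamini-Hochberg adjusted p = 9.58e-08. It lay between 2.16 and 2.39 under the alternatives tried and passed in all 18. The gene has 1 probe set, so no second probe set could be set beside it. KRTAP3-2 lay at 1.19 and 1.17 in the 2 groups (difference 0.02, 95% interval -0.14 to 0.18). KRTAP3-3 read 1.75, 1.73 and 1.74 against 1.87, 2.20 and 1.90, a difference of -0.25 that did not pass (limma, Benjamini-Hochberg adjusted p = 0.0703). Both were dim on every array.

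Of the 33 keratin-associated proteins 3 passed (9.09%), beside 22.7% of the keratins and 23.3% of all genes. Of the 33, 26 were dim on all arrays, and whether these shares differ was not tested. The 2 that passed beside KRTAP3-1 were both dim and at probe sets that can match several transcripts. KRTAP1-1 read 3.76, 3.79 and 3.90 against 3.42, 3.52 and 3.32. It was higher by 0.39 (SE 0.07; limma, Benjamini-Hochberg adjusted p = 0.00394). KRTAP4-9 gave 0.23 (limma, Benjamini-Hochberg adjusted p = 0.0441) and kept its call in 5 of the 16 alternatives that gave it a value. Leaving out any of the 6 arrays but NC replicate 2 ended it (limma, Benjamini-Hochberg adjusted p from 0.0611 to 0.133). The KRTAP4, KRTAP5 and KRTAP9 genes are close relatives and their probe sets may read several of them, so their values are uncertain. KRTAP5-9, bright on all arrays, gave 0.20 (limma, Benjamini-Hochberg adjusted p = 0.0576, or 0.0355 without NC replicate 1). The other bright ones were KRTAP17-1 (0.24, with NC replicate 3 at 3.98 below the other NC arrays at 4.44 and 4.39), KRTAP5-8 (0.15), KRTAP11-1 (0.11), KRTAP10-11 (0.10) and KRTAP1-3 (-0.01, or 0.17 with spike-in centring), none past the threshold.

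In chromosomal order the type I keratins other than KRT18 and a large block of keratin-associated proteins form an unbroken run of 62 protein-coding genes from KRT222 to KRT17 in the RefSeq table, of which 46 were measured. Genes past the threshold lay at several places in it, with genes not past it between them. KRT20 and KRT23 are adjacent and were both higher. KRTAP3-1 follows 5 genes after KRT23, with KRT40 (0.18), KRTAP3-3 and KRTAP3-2 between them not past the threshold, and KRTAP1-5 (0.27; limma, Benjamini-Hochberg adjusted p = 0.0979) and KRTAP1-3 (-0.01) on its other side before KRTAP1-1. Directly after KRTAP1-1 come the KRTAP2 genes, read mostly by shared probe sets that name no single gene. The probe set annotated to both KRTAP2-1 and KRTAP2-2 was higher by 0.41 (limma, Benjamini-Hochberg adjusted p = 0.00488 over all probe sets), while the probe set of KRTAP2-1 alone gave 0.15 and did not pass. One of the pair annotated to both KRTAP2-3 and KRTAP2-4 was higher by 1.01 (limma, Benjamini-Hochberg adjusted p = 1.17e-05 over all probe sets), and the other gave 0.28 and did not pass (0.0759). The values from KRTAP1-1 to KRTAP2-4 were thus all above 0, as were 70.1% of members and 55.0% of all genes. The genes measured next, up to KRTAP4-9 (0.23), were above 0 too. Of the probe sets from KRTAP1-1 to KRTAP2-4 only that at 1.01 was bright, and those with a shared annotation are not separate genes. Farther along, the probe set shared by KRT34 and a second locus was higher by 0.49 (limma, Benjamini-Hochberg adjusted p = 0.00276 over all probe sets). Near the far end KRT13 and KRT15 are next to each other, 1 higher and 1 lower. KRT19, on the other side of KRT15, gave 0.12 and did not pass. The called type II keratins ranged from -0.44 (KRT3) to 0.35 (KRT80).

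**Figure D4:**
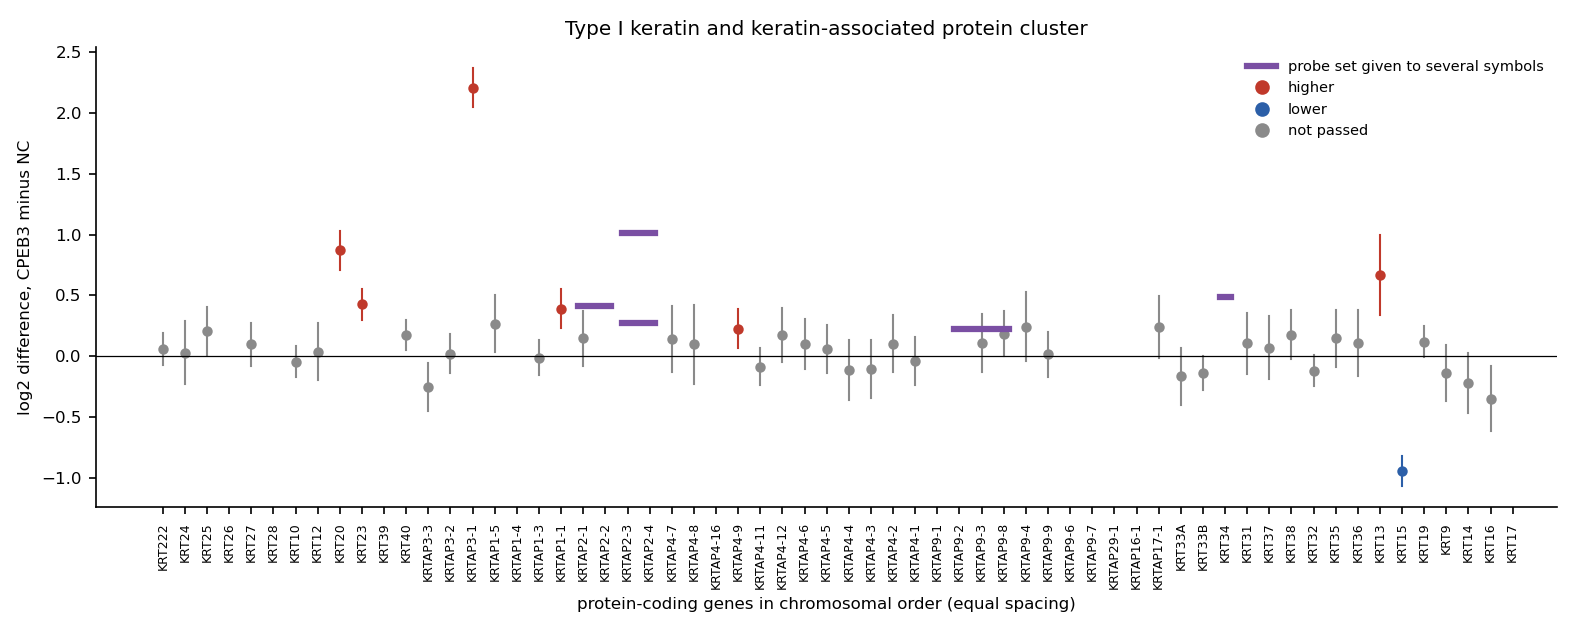
Log2 difference, CPEB3 minus NC, with its 95% interval (vertical axis) for the 62 genes of the type I keratin cluster in chromosomal order at equal spacing (horizontal axis); genes without a point were not analysed here, and purple bars are probe sets annotated to several symbols. KRTAP3-1 at 2.21 stands above its neighbours KRTAP3-3 (-0.25), KRTAP3-2 (0.02) and KRTAP1-5 (0.27), and KRT13 (0.67) and KRT15 (-0.94) lie side by side.

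The proteins that anchor, regulate or accompany keratin filaments were read from 6 lists with 107 measured genes, of which 12 were higher and 20 lower. That is 29.9% called, beside 23.3% of all genes and 32.7% of genes above the array median on all arrays, as 70 of the 107 were, so the share lay between these backgrounds. Each list below is small, and its count is to be read against the same shares. The higher genes numbered 4, 5 and 6 without CPEB3 replicates 1, 2 and 3 and 7, 6 and 9 without NC replicates 1, 2 and 3, and spike-in centring turned the split to 41 higher and 11 lower. Of 14 desmosome components, the junctions in which keratin filaments end, 1 was higher and 2 lower (21.4%), or 5 and 1 with spike-in centring. DSP, the plakin that binds keratin to the junction, gave -0.41 (SE 0.06) and passed (limma, Benjamini-Hochberg adjusted p = 0.00146). JUP, plakoglobin, gave 0.25 (limma, Benjamini-Hochberg adjusted p = 0.0287) and did not pass without CPEB3 replicate 1 or 3 or NC replicate 1 or 3 (0.0620 to 0.0965). DSG1, a skin desmoglein, gave -0.29 at a dim probe set.

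Of 10 plakins and hemidesmosome components 3 were higher and 1 lower (40.0%), or 6 and 1 with spike-in centring. LAMB3, a laminin subunit under hemidesmosomes, was 1.89-fold lower (-0.92; limma, Benjamini-Hochberg adjusted p = 1.40e-05), and the plakins MACF1 (0.28), PPL (0.26) and EVPL (0.21) were higher. MACF1 gave 0.06 when probe sets able to match several transcripts were left out, and leaving out 1 array ended the calls of MACF1 and PPL for some arrays and that of EVPL for each of the 6. Of 16 other intermediate filament proteins 0 were higher and 5 lower (31.2%), or 6 higher and 2 lower with spike-in centring. The lower ones were the nuclear lamins LMNB1 (-0.50), LMNB2 (-0.37) and LMNA (-0.35), the mesenchymal filament protein VIM (-0.43, or -0.17 averaged over its probe sets) and the progenitor filament protein NES (-0.36).

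Of 20 transcription regulators of keratin genes 6 were lower and 1 higher (35.0%), or 5 and 5 with spike-in centring. KLF4, a Kruppel-like factor of differentiating epithelia, was 3.98-fold lower (-1.99; limma, Benjamini-Hochberg adjusted p = 3.99e-08). The epithelial ETS factor ELF3 (-1.03), GRHL1 (-0.61) and KLF5 (-0.45) followed, each past the threshold under every alternative run that gave a value. Of 19 filament regulators and keratin-binding proteins 2 were higher and 4 lower (31.6%), or 5 and 2 with spike-in centring. SFN, the 14-3-3 sigma protein that binds keratin filaments, was 1.47-fold higher (0.55; limma, Benjamini-Hochberg adjusted p = 3.99e-04). The kinase PRKCE (-0.60, or -0.05 averaged over its probe sets), the SUMO protease SENP1 (-0.44) and the small heat shock protein HSPB1 (-0.26) were lower. Of 28 cornified envelope and keratinocyte differentiation genes 5 were higher and 2 lower (25%), or 14 and 0 with spike-in centring. KLK7, a protease of the cornified layer, was 1.51-fold higher (0.59; limma, Benjamini-Hochberg adjusted p = 1.41e-04), IVL (0.36) and TGM5 (0.35) were higher, and ALOX12B (-0.35) was lower, of which IVL and ALOX12B were dim on all arrays.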

How the data were processed

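Per the labels, total RNA was labelled with biotin and hybridised to 6 arrays. The deposited intensity is linear, with 1 value for each probe set on each array, and was normalized by the authors with RMA per the submitters' processing notes; no version or build is given in the sources used here. RMA makes array distributions alike, so total RNA per cell is not measured. Log2 was taken here. Array medians were 3.89 to 3.93, and r over all probe sets was 0.997 to 0.998 within groups and 0.991 to 0.992 between them. Of 54675 probe sets 41091 had 1 symbol in the platform annotation, 1801 several and 11721 none here, and 62 were controls. Each gene was read at its 1-symbol probe set with the highest mean. Antisense transcripts were left out of the members.

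Differences are arrays labelled CPEB3 minus NC, tested with limma 3.58.1 in R 4.3.3 (group as the only term, two-sided, Benjamini-Hochberg over 19775 genes, 0.05), after a test on simulated data. Probe-set p-values were adjusted over all probe sets. Named genes were all members past the threshold or bright on all arrays, 8 fixed keratin genes, the 3 largest differences not past it, and up to 4 called genes per list. KRT4, KRT12, KRT14, KRT33A, KRT38, KRT40, KRT73, KRT74, KRT85, KRTAP2-1, KRTAP3-2, KRTAP3-3, LMNA and the markers not past the threshold are outside that rule and were named after their values were seen. The members and lists were chosen with earlier results of these data known. Alternatives were other probe set choices, scalings, variance models, array weights, a replicate block, a threshold of 0.01 and leaving out each array. Figures used matplotlib 3.10.9 and alignments Biopython 1.88.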

Additional observations from a re-analysis of the deposited data

Results flagged for a closer look

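Some probe sets of the family that stand for no member were higher in the arrays labelled CPEB3 past the limma threshold (Benjamini-Hochberg adjusted over all probe sets), a signal in data outside the comparison of members. The probe set annotated jointly to KRTAP2-3 and KRTAP2-4 was bright and higher by 1.01 (9.95 against 8.94), while a dim probe set of the same annotation gave 0.28 and did not pass. The probe set annotated jointly to KRTAP2-1 and KRTAP2-2, dim in both groups, was higher by 0.412. The one annotated to KRT34 together with a second locus, also dim, was higher by 0.488. The antisense transcript KRT10-AS1 was higher by 0.448 (8.74 against 8.29), where KRT10 itself gave -0.04. One probe set of the pseudogene KRT8P12 was higher by 0.389, and its other probe set gave -0.04. Which transcript each of these probe sets reads was not tested.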

How the results depend on the processing

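Of the 13 called members, KRT13, KRT15, KRT20, KRT23, KRT76, KRTAP1-1 and KRTAP3-1 kept their call under every one of the 18 alternatives that gave them a value; over named genes and all alternatives, probe sets on their own included, 898 values of 1043 kept direction and side of the threshold, 96 lost the call and 25 gained one. The 11 higher and 2 lower members became 5 and 2 without ambiguous probe sets (able to match several transcripts), where KRT18, KRT23, KRT13, KRTAP1-1 and KRTAP4-9 had no value and KRT5 did not pass; 7 and 1 without dim genes; 10 and 4 with quantile normalization once more; 6 and 2 at an adjusted p under 0.01; and 43 and 1 with spike-in centring, where the members' median was 0.282. The context genes higher fell from 12 to 5 without ambiguous ones and to 2 at 0.01, and were 41 with 11 lower after spike-in centring. All genes gave 7766 higher and 1038 lower so centred, and 1083 and 1520 at 0.01, against 2146 and 2470. Leaving out 1 array gave 7 to 12 higher members and 2 to 3 lower, a members' median of 0.0658 to 0.125, 4 to 9 higher and 16 to 20 lower context genes, and 1512 to 1942 higher and 1861 to 2412 lower among all genes. Some values reversed. KRT7 gave 0.0951 with the mean of probe sets, 0.264 with the most variable one, 0.0612 without ambiguous ones, 0.0226 with quantile normalization, 0.172 with spike-ins, 0.0279, 0.0328 and 0.00301 without CPEB3 replicate 2, NC replicate 2 and NC replicate 3 (range -0.0577 to 0.0328 over left-out arrays), and 0.0612, 0.0626 and 0.264 at its other probe sets. KRTAP1-3 gave 0.00929 with quantile normalization, 0.168 with spike-ins, and 0.00192 and 0.0294 without CPEB3 replicate 1 and NC replicate 2 (range -0.0576 to 0.0294). Spike-in centring gave KRT10 0.135, KRT32 0.0616, KRT83 0.123 and KRT9 0.0395. The mean and the most variable probe set gave ITGAM -0.0954 and -0.513 and CPEB3 -0.498 and -1.44, and DCN gave -0.0991 without ambiguous probe sets. The cause of these shifts was not tested. Deviations of same-numbered replicates correlated at r = 0.00027, -0.0172 and 0.118, within the range of differently numbered pairs (-0.111 to 0.12). With 3 arrays per group this cannot show whether same-numbered replicates shared a culture or a day. With the replicate block 10 members were higher and 3 lower, 1946 and 2316 among all genes, and 10 and 20 among context genes. KRT5, KRTAP4-9 and JUP then lost their call, and KRT16 and KRT2 gained one. Precision is limited by 3 arrays per group and by signal whose distance from background is unknown, for the 51 dim members and for the brighter ones.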

Other observations

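Leukocyte markers had 1 of 13 higher (ITGAM) and fibroblast and endothelial markers 1 of 14 (DCN), or 7.69% and 7.14% called, beside 23.3% of all genes. The summed linear intensities of these 2 lists were somewhat higher in the arrays labelled CPEB3 (200.1 to 211.9 against 180.5 to 193.1, and 247.4 to 257.1 against 227.1 to 241.2). On all 6 arrays 5 of 13 leukocyte markers and 4 of 14 fibroblast and endothelial markers lay above the array median, beside 12355 of all 19775 genes. CD3D, CD3E, CD79A, COL1A1 and PECAM1 were among them. PTPRC, CD14, CSF1R, COL1A2, COL3A1, VWF and CDH5 were among the 8 of each list that lay below it on all 6. The part of these markers in the members' differences was not tested. Of the colon epithelial markers CLDN4 (-0.34) was lower and FABP1 (0.33, dim) higher, and EPCAM gave 0.04 and CDX2 0.02.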
